A study of Mus musculus with 6 samples.

Results

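Genes that make cholesterol and fatty acids were followed in mouse prostate basal cells taken from proximal ducts or from distal ducts. The list held 36 genes chosen by name, out of 25273 genes with a value: 18 enzymes of sterol synthesis, 6 genes of sterol regulation and transport and 12 enzymes of fatty acid synthesis and desaturation. All 36 were found, and 35 reached the mean of 1 FPKM over the libraries (fragments scaled to transcript length and library size) required for testing. The exception was Tm7sf2, a sterol reductase, which was listed at 1.78 FPKM in distal replicate 1 and at 0 in the other libraries.

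Total RNA of 3 libraries from distal and 3 from proximal ducts was sequenced, all from C57BL/6 mice aged 8 to 12 weeks with no treatment named in the labels. The series states a comparison of 2 groups, and the question here is how lipid synthesis genes differ between basal cells of the duct regions. The cells were dissociated and stained for flow sorting, but the antibodies that defined the basal gate are not named. A culture of primary stromal cells in medium with serum and dihydrotestosterone is also described for every library, and the labels leave unsaid whether the basal cells were cultured. Nothing in the labels ties a library to its own animal, and the p-values therefore measure only how these libraries spread, which may be a technical spread.

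Each library held 20800000 to 26600000 fragments, as estimated from the deposited intervals. Of 12 basal markers, 6 were higher in proximal libraries (Krt5, Krt15, Lamb3, Lama3, Col17a1 and Cav1), none was lower and 6 did not pass (limma; 8 higher and 2 lower at an unadjusted p under 0.05), with a median log2 fold change of 0.45. For comparison with these and the following marker counts, 4.52% of all tested genes were higher and 2.5% lower in proximal libraries. At an unadjusted p under 0.05 (limma) the shares were 12.1% and 11.9%. Krt5 averaged 379.9 and 618.1 FPKM in distal and proximal libraries, and Krt14, which did not pass, 2716 and 2185 FPKM. The summed level of the basal markers was 7792 to 9492 FPKM in distal and 9068 to 9320 FPKM in proximal libraries. The summed level of 14 luminal markers was 2492 to 3280 FPKM in distal and 3512 to 3786 FPKM in proximal libraries, and 5 of them were higher and 2 lower in proximal libraries. Adipocytes are rich in lipid enzymes. Their 10 markers summed to 49.9 to 60.4 FPKM in distal and 38.9 to 43.4 FPKM in proximal libraries, neither of the 2 tested ones passed, and the defining Adipoq and Plin1 reached at most 0.253 and 0.0400 FPKM. Other cells' markers were higher in proximal libraries for 5 of 7 fibroblast, 5 of 7 endothelial and 3 of 4 nerve and glia genes tested, and for none of 6 smooth muscle and 2 immune genes. The summed fibroblast markers went the other way, at 768.5 to 812.9 FPKM in distal and 684.8 to 755.6 FPKM in proximal libraries. Most of that sum was Dcn, which averaged 769.2 and 678.6 FPKM and did not pass. The part of these cells in the results was not tested. In such bulk samples, fewer cells of a type and less RNA per cell cannot be told apart.

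Cholesterol is built from acetyl-CoA through mevalonate, isoprenoid diphosphates, squalene and lanosterol. Its enzymes are targets of the transcription factor SREBP2 (gene Srebf2). When sterols are low, the escort protein SCAP carries SREBP to the Golgi for cleavage, and the INSIG proteins hold SCAP back when sterols are high. SREBP1 (gene Srebf1) acts mainly on the enzymes that make, elongate and desaturate fatty acids. In prostate epithelium these enzymes are known as androgen-responsive genes.

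The sterol enzymes were lower in proximal cells at several steps of the pathway, and the fatty acid enzymes were mixed. Of 17 tested sterol enzymes, 4 fell (Idi1, Fdft1, Sqle and Cyp51), none rose and 13 did not pass the test (limma on log2(FPKM + 1), adjusted p under 0.05). Among all 10255 tested genes, 2.5% were called lower and 4.52% higher in proximal cells, 7.02% in all. At an unadjusted p under 0.05 (limma), 10 sterol enzymes were lower and 0 higher, against 11.9% and 12.1% of all tested genes. A negative log2 fold change was found in 15 of the 17, against 51.5% of all tested genes, and their median was -0.50 against -0.01. In 9 of the 17 every proximal library lay below every distal library, as was the case for 13.0% of all tested genes. Of the 12 fatty acid enzymes, 2 fell (Scd1 and Fads2), 1 rose (Me1) and 9 did not pass, with a median of -0.10. At an unadjusted p under 0.05 (limma), 5 of them were lower and 1 higher. A negative log2 fold change was found in 7 of the 12, every proximal library lay below every distal one in 4, and above in 2, against 13.0% and 15.8% of all tested genes. The difference between both sides of the pathway was not tested. The sterol count changed with the libraries used: it was 7 without distal replicate 1, and 2 without distal replicate 2, distal replicate 3 or proximal replicate 2. In the same order, all genes called lower went from 256 to 622, 46, 62 and 53. The sterol median stayed between -0.55 and -0.42 on leaving out 1 library.

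**Figure D1:**
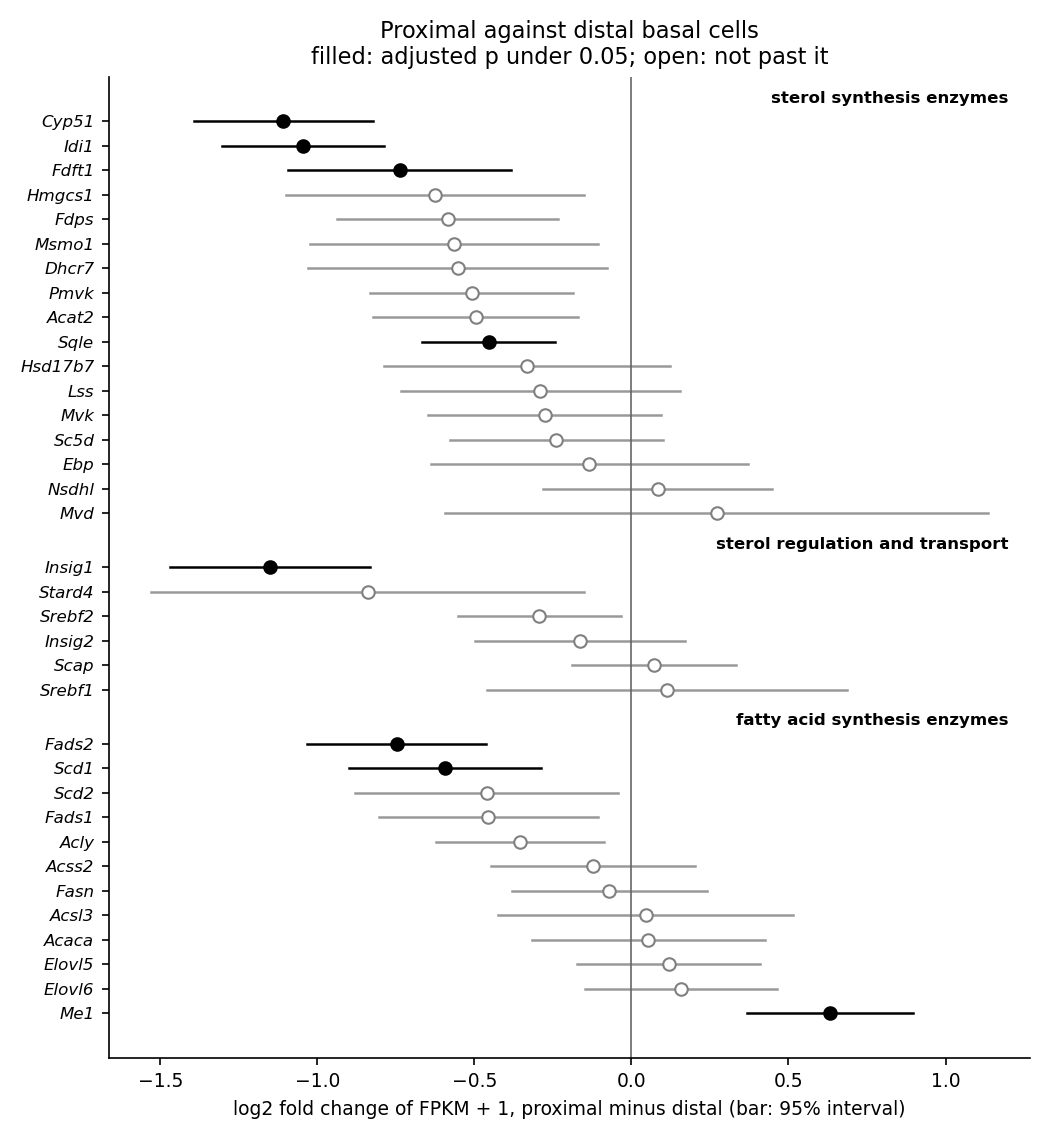
Log2 fold changes of FPKM + 1, proximal minus distal (x axis), of the 35 tested genes in 3 groups, with 95% intervals from limma. Filled points passed the test: Cyp51, Idi1, Fdft1, Sqle, Insig1, Fads2 and Scd1 lie below 0 and Me1 lies above 0.

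The promoters of Idi1, Cyp51 and Insig1 are shown because these were the called sterol genes with an entry in the RefSeq table. Each sequence is the 250 bases before the annotated start, 5′ to 3′ on the gene's strand (RefSeq, GRCm38.p6), in lower case. Capitals mark CCAAT, the site of NF-Y, GGGCGG, a GC box, and CACGTG, an E-box, on either strand.
Idi1, chr13:8885356-8885605, plus strand: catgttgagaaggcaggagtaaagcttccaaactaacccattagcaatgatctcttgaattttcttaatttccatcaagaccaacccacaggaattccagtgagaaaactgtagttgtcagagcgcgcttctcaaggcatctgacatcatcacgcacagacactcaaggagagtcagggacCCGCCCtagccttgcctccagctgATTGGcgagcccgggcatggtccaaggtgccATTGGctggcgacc
Cyp51, chr5:4104698-4104947, minus strand: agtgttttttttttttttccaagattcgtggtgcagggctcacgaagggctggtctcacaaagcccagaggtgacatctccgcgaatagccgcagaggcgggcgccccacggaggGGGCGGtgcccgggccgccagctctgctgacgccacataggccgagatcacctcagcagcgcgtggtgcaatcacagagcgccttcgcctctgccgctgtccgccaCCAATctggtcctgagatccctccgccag
Insig1, chr5:28071162-28071411, plus strand: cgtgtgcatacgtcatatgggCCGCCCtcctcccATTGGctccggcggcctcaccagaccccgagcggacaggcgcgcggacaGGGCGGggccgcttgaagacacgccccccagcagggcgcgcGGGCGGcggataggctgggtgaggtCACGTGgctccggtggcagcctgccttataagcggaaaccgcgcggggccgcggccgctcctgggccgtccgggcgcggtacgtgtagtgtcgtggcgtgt
Idi1 held CCAAT in reverse at -45 and -14 from its start and GGGCGG in reverse at -69. In Cyp51, CCAAT began at -29 and GGGCGG at -135. Insig1 held 1 CCAAT in reverse at -216, 3 matches to GGGCGG and 1 to CACGTG.

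Promoter windows were present for 29 of the 36 genes, but not for Fdps, Fdft1, Sqle, Stard4, Scd1, Scd2 and Fads1. Genes with several annotated starts had several windows, and a gene was counted when any window matched. CCAAT was found in 14 of 15 sterol enzymes, in 4 of 5 regulators and in 5 of 9 fatty acid enzymes, against 37.49% of all genes, 40.13% of the tested genes and 33.85% of all windows. GGGCGG was found in 14 of 15, 5 of 5 and 5 of 9, against 35.36% of all and 67.05% of tested genes (32.74% of windows). The E-box was found in 3 of 15 sterol enzymes (Hsd17b7, Sc5d and Dhcr7), in Insig1 and Scap and in Elovl5, against 6.86% of all and 10.4% of tested genes (6.02% of windows). A form of the sterol regulatory element, TCACNCCAC with any base at N on either strand, was found in Hmgcs1 alone among the 29 genes, against 1.22% of all genes (1.05% of windows). Elements that differ from it at other bases were not counted. These counts describe letters in a window of 250 bases and were not tested.

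The first steps make mevalonate and its phosphates. Hmgcs1, the synthase that forms HMG-CoA (chromosome 13, 119690379 to 119708260, mm10), was at 44.7, 76.6 and 76.6 FPKM in distal and at 37.6, 41.6 and 44.5 FPKM in proximal libraries. Distal replicate 1 stood close to the proximal libraries, and the groups did not overlap. The log2 fold change was -0.63 ± 0.21 (SE), which did not pass (limma, adjusted p = 0.112), and without distal replicate 1 it was past the threshold. Acat2, the cytosolic thiolase that supplies acetoacetyl-CoA, was at 9.12, 10.4 and 10.2 against 7.50, 7.38 and 5.48 FPKM (adjusted p = 0.0787). Pmvk, phosphomevalonate kinase, was at 7.11, 7.52 and 8.39 against 4.92, 4.40 and 6.06 FPKM (adjusted p = 0.0708). Neither gene's groups overlapped. Mvk, mevalonate kinase, was low throughout, at 1.44 to 1.57 FPKM in distal and 0.711 to 1.27 FPKM in proximal libraries (adjusted p = 0.336).

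Mvd, the decarboxylase that forms isopentenyl diphosphate, differed more between libraries than between groups. It was at 3.53, 6.92 and 8.48 FPKM in distal and at 3.95, 8.92 and 11.2 FPKM in proximal libraries. The library numbered 1 was the lowest in each group, and the log2 fold change of 0.27 ± 0.37 (SE) did not pass (limma, adjusted p = 0.708).

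Idi1, the isomerase that makes dimethylallyl diphosphate (chromosome 13, 8885501 to 8892451), had one of the clearest differences. It was at 43.5, 50.9 and 50.7 FPKM in distal and at 21.8, 21.8 and 25.2 FPKM in proximal libraries. The lowest distal value had a deposited interval of 41.8 to 45.2 FPKM and the highest proximal value one of 24.0 to 26.3 FPKM. These intervals cover the error of estimating a level within 1 library and say nothing of the spread between libraries. The log2 fold change was -1.05 ± 0.11 (SE, limma, adjusted p = 0.00218), and its call held under all 15 alternatives. Fdps, which condenses these units into farnesyl diphosphate, was at 6.15, 6.86 and 8.38 against 4.75, 3.69 and 4.79 FPKM and narrowly missed the threshold (adjusted p = 0.0607). It passed under both other scalings between libraries, and its adjusted p ranged from 0.0253 to 0.220 over the alternatives. Its main transcript alone, at 6.27 ± 0.407 in distal and 3.60 ± 0.228 FPKM in proximal libraries (SD, n = 3), passed in the fit over 13878 transcripts (limma, adjusted p = 0.0366), in which 0.894% were lower and 2.16% higher. In that fit the single expressed transcripts of Fdft1 and Scd1, both called as genes, did not pass (adjusted p = 0.0749 and 0.0786), while those of Idi1, Cyp51, Insig1, Sqle and Me1 did, at no more than 0.0466.

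**Figure D2:**
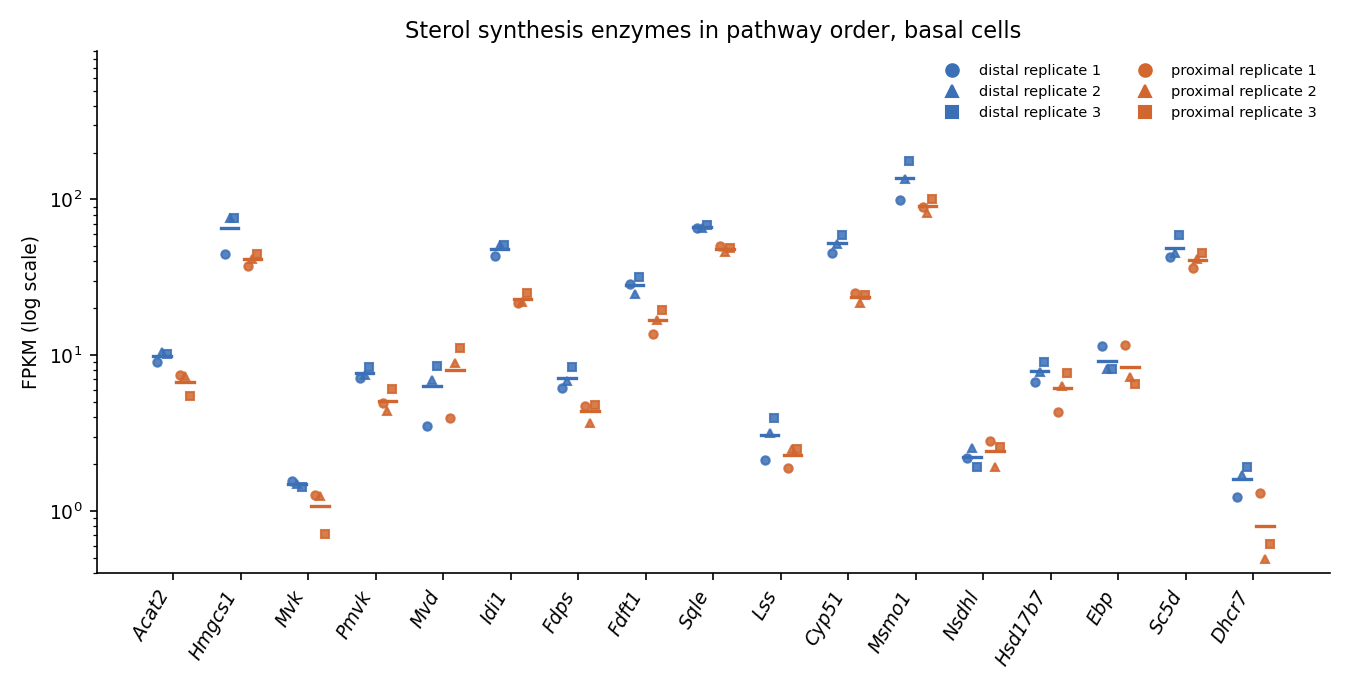
FPKM on a log scale of the 17 tested sterol enzymes in pathway order, by library (blue distal, orange proximal, bars the mean of 3 libraries). The proximal points of Idi1 lie at 21.8 to 25.2 and those of Cyp51 at 21.8 to 24.9 FPKM, below every distal point. The groups overlap for Mvd, Lss, Msmo1, Nsdhl, Hsd17b7, Ebp, Sc5d and Dhcr7.

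Squalene is made and closed into lanosterol by Fdft1, Sqle and Lss. Fdft1, squalene synthase (chromosome 14, 63145150 to 63179578), was at 28.5, 24.8 and 32.0 FPKM in distal and at 13.7, 16.9 and 19.6 FPKM in proximal libraries. The groups did not overlap, and the log2 fold change was -0.74 ± 0.15 (SE, limma, adjusted p = 0.0291). Its 3′ end overlaps Ctsb by 774 bases on the opposite strand, where unstranded reads of the pair could not be separated, and Ctsb itself was at 53.1 ± 3.90 and 55.4 ± 4.47 FPKM (SD, n = 3, adjusted p = 0.784). Sqle, the epoxidase that oxidises squalene (chromosome 15, 59315077 to 59331192), was at 65.2, 65.2 and 69.1 against 50.4, 45.8 and 48.6 FPKM. Its difference was modest and its spread small, with a log2 fold change of -0.46 ± 0.09 (SE, adjusted p = 0.0265). Both calls were lost without distal replicate 2, distal replicate 3 or proximal replicate 2, that of Sqle also without proximal replicate 3, with adjusted p-values of at most 0.108 and 0.126, and that of Fdft1 also with no filter on low values. Lss, the cyclase, was lower in level, at 2.13, 3.18 and 3.93 against 1.88, 2.50 and 2.50 FPKM, and its groups overlapped (adjusted p = 0.403).

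Of the 7 tested enzymes that convert lanosterol to cholesterol, 1 fell and 6 did not pass. Cyp51, the lanosterol demethylase (chromosome 5, 4081145 to 4104746), was at 45.5, 52.0 and 59.5 FPKM in distal and at 24.9, 21.8 and 24.2 FPKM in proximal libraries. Every proximal value was below every distal value, and the log2 fold change, -1.11 ± 0.12 (limma with its SE, adjusted p = 0.00260), held its call under all 15 alternatives. Msmo1, the methylsterol oxidase of the following steps, had the highest level of the enzymes, at 99.8, 136 and 177 FPKM in distal and, in proximal libraries, 89.0, 82.0 and 101 FPKM. Distal replicate 1 lay within the proximal range, so the groups overlapped (adjusted p = 0.132), and the gene passed without that library. Dhcr7, the last reductase, was low, at 1.23, 1.71 and 1.91 against 1.31, 0.490 and 0.616 FPKM (adjusted p = 0.152). Proximal replicate 1 lay within the distal range, and the gene passed without it. These values rested on 29 to 122 fragments per library, as the deposited intervals imply.

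None of the other late enzymes passed, and the groups overlapped for each. Hsd17b7, a ketosteroid reductase, was at 6.72 to 9.12 FPKM in distal and 4.35 to 7.71 FPKM in proximal libraries, and Sc5d, the lathosterol desaturase, at 42.8 to 59.1 and 36.4 to 45.4 FPKM. Their log2 fold changes were -0.33 (95% interval from -0.79 to 0.12) and -0.24 (from -0.58 to 0.10), with adjusted p-values of 0.345 and 0.363 (limma). Ebp, the sterol isomerase, was highest in both libraries numbered 1, with 11.4 FPKM in the distal one and 11.6 FPKM in the proximal one, against 6.54 to 8.13 FPKM in the other 4. Nsdhl, a dehydrogenase of C4 demethylation, was at 1.93 to 2.55 and 1.91 to 2.82 FPKM, with a log2 fold change of 0.08 and a 95% interval from -0.28 to 0.45.

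Among the regulators, Insig1 stood apart from its paralog Insig2. Insig1, which holds SCAP back when sterols are high (chromosome 5, 28071363 to 28078662), was at 24.2, 32.2 and 31.4 FPKM in distal and at 11.4, 12.5 and 13.8 FPKM in proximal libraries. The groups lay far apart relative to their spread, with a log2 fold change of -1.15 ± 0.14 (SE) by limma (adjusted p = 0.00323), and the call held under all 15 alternatives. Insig2, which retains SCAP in the same way, was at 12.0, 13.7 and 16.5 against 13.5, 10.8 and 12.9 FPKM, with a log2 fold change of -0.16 and a 95% interval from -0.50 to 0.17. The ratio of Insig1 to Insig2, both per length, was 2.02, 2.35 and 1.91 in distal and 0.842, 1.16 and 1.07 in proximal libraries. Insig1 thus exceeded Insig2 in each distal library, and the 2 genes were at similar levels in proximal libraries.

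The transcription factors themselves did not pass the test. Srebf2 (chromosome 15, 82147181 to 82205379) was at 37.5, 36.9 and 44.5 FPKM in distal and at 30.4, 31.3 and 34.6 FPKM in proximal libraries. The groups did not overlap, but the log2 fold change of -0.29 ± 0.11 (SE) missed the threshold (limma, adjusted p = 0.161). Its 3 transcripts above 1 FPKM had log2 fold changes of -0.31, -0.30 and -0.17, so no transcript went against the sum. Srebf1 was at 11.9, 22.4 and 20.5 against 15.2, 19.0 and 24.3 FPKM (adjusted p = 0.830). The library numbered 1 was the lowest of each group. Both of its matched transcripts start at the same annotated position, so the 1a and 1c forms, which use different first exons, were not compared. Scap, the escort protein, was at 14.5 to 17.2 and 15.7 to 18.3 FPKM, with a log2 fold change of 0.07 and a 95% interval from -0.19 to 0.33.

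Stard4, which carries cholesterol between membranes (chromosome 18, 33199355 to 33213862), was at 3.88, 7.95 and 10.3 FPKM in distal and 2.73, 3.33 and 4.35 FPKM in proximal libraries. Distal replicate 1 again lay inside the proximal range. Its log2 fold change of -0.84 ± 0.30 (SE) did not pass (limma, adjusted p = 0.136), and without both libraries numbered 1 it was -1.07 (adjusted p = 0.0106, the lowest of a range up to 0.347 over its alternatives).

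Fatty acid synthesis starts from citrate and acetate. Acly, which splits citrate into acetyl-CoA, was at 38.5, 46.2 and 44.0 FPKM in distal and at 36.8, 32.9 and 30.4 FPKM in proximal libraries, without overlap of the groups (limma, adjusted p = 0.111). Acss2, which activates acetate, was at 1.99 to 2.28 and 1.62 to 2.19 FPKM. The core enzymes of chain building overlapped between the groups and did not pass. Fasn, fatty acid synthase, was at 21.9, 21.7 and 17.8 against 16.8, 22.0 and 19.6 FPKM, with a log2 fold change of -0.07 and a 95% interval from -0.38 to 0.24. Acaca, acetyl-CoA carboxylase, was at 1.30 to 1.63 and 1.17 to 1.95 FPKM (log2 fold change 0.05, interval from -0.32 to 0.42).

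Desaturases were the fatty acid enzymes that fell. Fads2, the delta-6 desaturase of polyunsaturated fatty acids (chromosome 19, 10062765 to 10101746), was at 42.9, 51.6 and 44.7 FPKM in distal and at 30.2, 27.8 and 23.8 FPKM in proximal libraries. The groups did not overlap, and the log2 fold change was -0.75 ± 0.12 (SE, limma, adjusted p = 0.0120). The call was lost without distal replicate 2 or proximal replicate 2, with an adjusted p of up to 0.0631. Its level is the sum of 2 deposited models from separate parts of the gene and is not comparable with other genes' levels. The models had log2 fold changes of -0.78 and -0.68, of which the first passed among transcripts (adjusted p = 0.0246 and 0.0640). Scd1, the delta-9 stearoyl-CoA desaturase (chromosome 19, 44394455 to 44407879), was at 12.4, 12.7 and 11.02 against 6.73, 8.97 and 7.36 FPKM, with a log2 difference of -0.59 ± 0.13 (SE, adjusted p = 0.0364). Its groups did not overlap, but its call was lost on leaving out any 1 of the 6 libraries, with adjusted p-values up to 0.154, and with no filter on low values.

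Related desaturases were lower in mean and did not pass. Scd2, the paralog of Scd1, was at 17.2, 28.2 and 24.0 FPKM in distal and 16.9, 17.8 and 14.2 FPKM in proximal libraries (limma, adjusted p = 0.171). Distal replicate 1 was again the lowest distal library and overlapped the proximal range. Fads1, the delta-5 desaturase encoded beside Fads2, was at 17.97, 17.3 and 16.5 against 15.3, 12.1 and 10.0 FPKM (adjusted p = 0.114), with no overlap. Neither elongase passed. Elovl5, which extends polyunsaturated chains, was at 11.3 to 14.9 and 14.4 to 15.0 FPKM, and Elovl6, which extends palmitate, at 1.14 to 1.37 and 1.39 to 1.57 FPKM (adjusted p = 0.610 and 0.510). Acsl3, a ligase that activates fatty acids, was at 52.3, 39.5 and 38.6 against 59.5, 42.3 and 34.8 FPKM, highest in both libraries numbered 1. It overlaps Utp14b over 13475 bases on the same strand, and how the authors' counting divided reads there is not known.

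Me1, the cytosolic malic enzyme that yields NADPH (chromosome 9, 86581371 to 86695953), was the 1 member that rose. It was at 6.51, 5.86 and 6.48 FPKM in distal and at 9.88, 9.74 and 11.3 FPKM in proximal libraries. Every proximal value exceeded every distal value, with a log2 fold change of 0.63 ± 0.11 (SE) by limma (adjusted p = 0.0175). Leaving out either of the libraries numbered 2, or either of those numbered 3, ended the call (adjusted p at most 0.0926). The promoters of Fads2 and Me1 are shown, as the fatty acid genes with the smallest p in each direction, with the same marks and source.
Fads2, chr19:10101504-10101753, minus strand: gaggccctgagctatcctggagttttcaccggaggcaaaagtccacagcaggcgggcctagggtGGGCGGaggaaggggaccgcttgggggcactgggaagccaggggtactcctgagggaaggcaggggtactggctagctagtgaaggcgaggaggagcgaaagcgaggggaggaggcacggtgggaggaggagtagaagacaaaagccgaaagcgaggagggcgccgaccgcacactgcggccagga
Me1, chr9:86695915-86696164, minus strand: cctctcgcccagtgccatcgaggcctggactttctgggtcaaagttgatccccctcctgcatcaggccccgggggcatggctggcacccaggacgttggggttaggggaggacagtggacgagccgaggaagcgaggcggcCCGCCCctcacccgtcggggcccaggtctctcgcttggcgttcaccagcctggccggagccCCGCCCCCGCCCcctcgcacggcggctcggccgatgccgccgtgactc
Neither window held CCAAT, which Idi1, Cyp51 and Insig1 all carry. Fads2 held GGGCGG at -186, and Me1 held it in reverse at -109, -48 and -42. A second annotated start of Me1, not shown, had a CCAAT within its window.

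**Figure D3:**
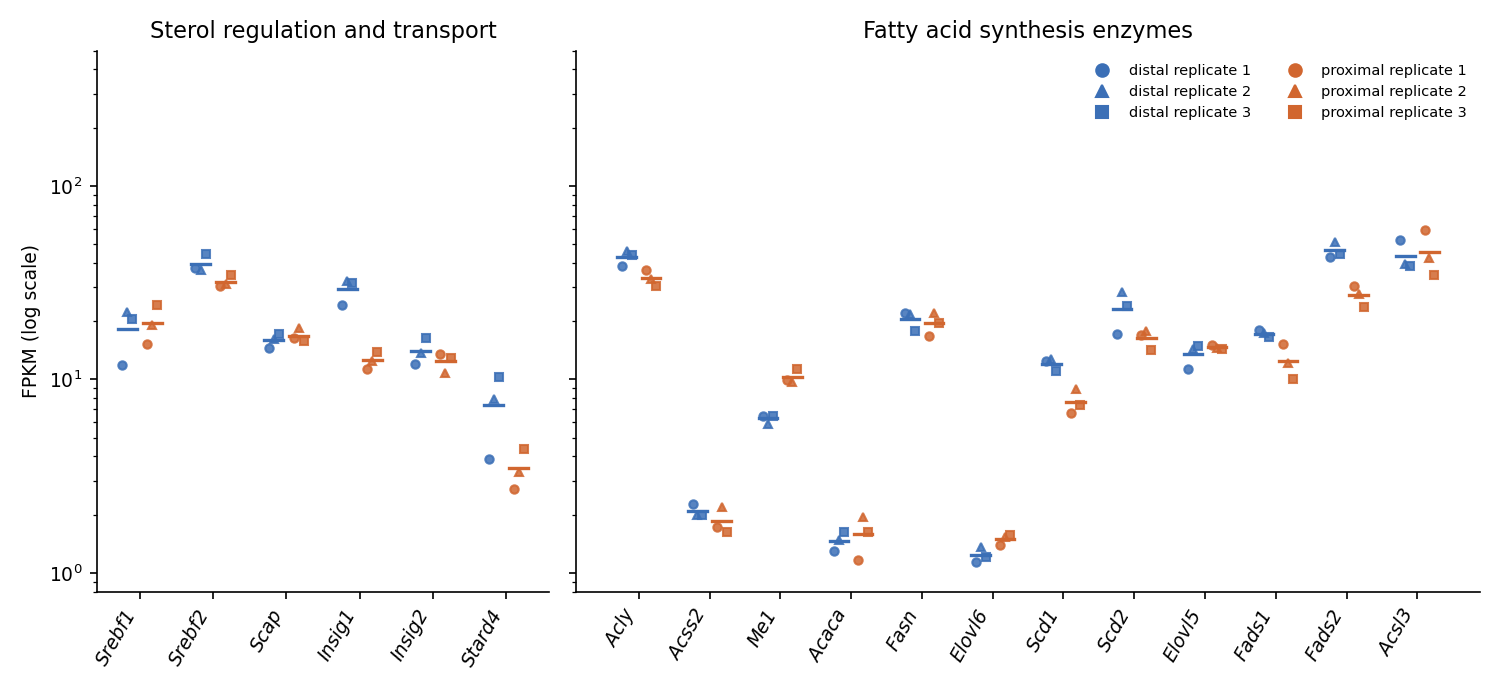
FPKM on a log scale of the 6 regulators (left) and the 12 fatty acid enzymes (right) by library, with bars at the mean of 3 libraries. Insig1 at 11.4 to 13.8 FPKM and Fads2 at 23.8 to 30.2 FPKM lie below all distal points in proximal cells. Me1 at 9.74 to 11.3 FPKM lies above them, and Fasn and Scap are among the genes whose groups overlap.

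Both libraries numbered 1 were the lowest or highest of their group for several of these genes, among them Mvd, Srebf1, Ebp and Acsl3. In the mean of the sterol enzymes distal replicate 1 was the lowest distal library, while proximal replicate 1 lay between the other proximal ones. The mean deviation of the 17 sterol enzymes from their mean over the 6 libraries, in log2 units, was 0.05, 0.24 and 0.38 in distal and -0.25, -0.26 and -0.15 in proximal libraries. For the fatty acid enzymes it was 0.04, 0.13 and 0.06 against -0.05, -0.01 and -0.16. Dissociation and immediate early genes, known to respond to tissue handling, followed the same order in the distal libraries, at -0.09, 0.65 and 0.65, beside -0.48, -0.39 and -0.35 in proximal libraries. Of their 17 tested members, 3 were lower in proximal cells, none was higher and 14 did not pass (at an unadjusted p under 0.05 in limma, 13 were lower and 0 higher), with a summed level of 10250 to 18340 FPKM in distal and 7600 to 9293 FPKM in proximal libraries. Of all tested genes, 2.5% were lower and 4.52% higher, and 11.9% and 12.1% at an unadjusted p under 0.05 (limma). The part of the early genes in the sterol result was not tested. In distal replicate 1 the early genes were nearest to the proximal libraries but above each of them, as was the mean of the sterol enzymes. The 7 tested endothelial markers also set distal replicate 1 apart, there as the highest distal library. Their mean deviation was -0.05, -0.93 and -0.70 in distal and 0.695, 0.66 and 0.33 in proximal libraries. The part of endothelial cells in the sterol result was not tested either.

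**Figure D4:**
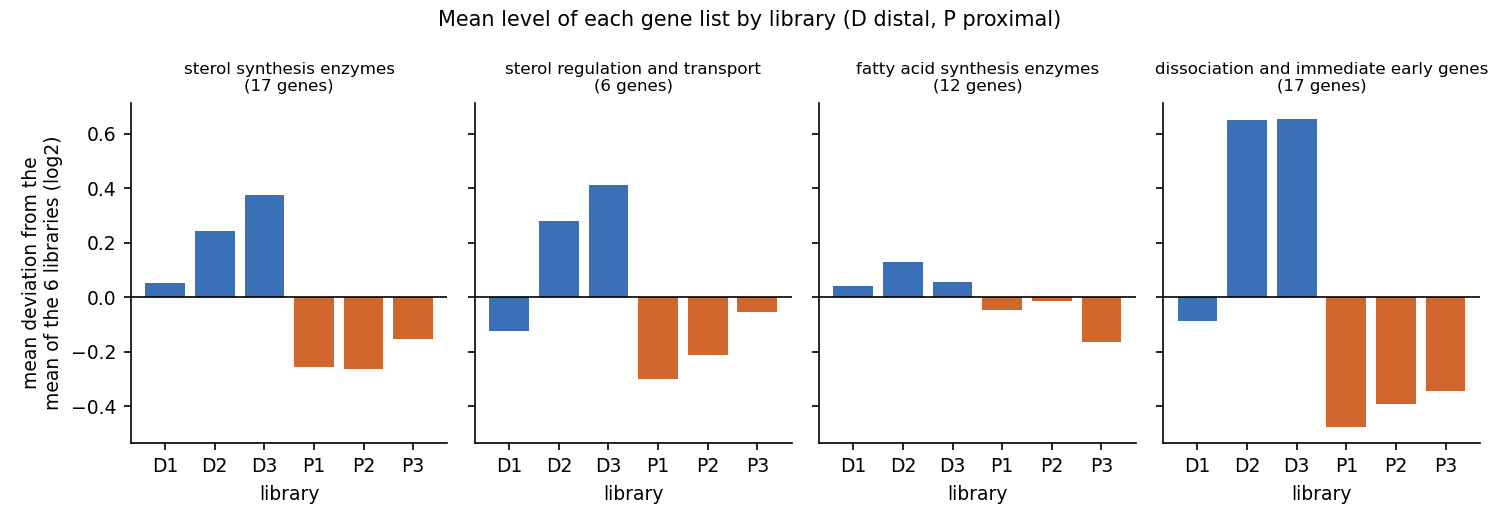
Mean deviation from the mean of the 6 libraries (log2, y axis) of 4 gene lists in each library (D1 to D3 distal, P1 to P3 proximal). Sterol enzymes are above 0 in the distal and below 0 in the proximal libraries, with D1 at 0.05, and the immediate early genes have D1 at -0.09.

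Without both libraries numbered 1, which leaves 2 libraries in each group, 9 of 17 sterol enzymes were lower and none higher, against 13.5% of all tested genes lower. The added calls were Hmgcs1, Fdps, Msmo1, Acat2 and Dhcr7, and the log2 fold change of Hmgcs1 was -0.82 (limma, adjusted p = 0.00287, the lowest of a range up to 0.331 over its alternatives). Of the fatty acid enzymes 5 were then lower (Fads2, Scd1, Scd2, Fads1 and Acly) and Me1 remained higher, against 8.84% of all genes higher. Insig1 and Stard4 were lower among the 6 regulators. The medians moved little, to -0.54 for sterol and -0.04 for fatty acid enzymes.

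Few genes around these pathways were called, and few were called among all tested genes, 4.52% higher and 2.5% lower in proximal cells. At an unadjusted p under 0.05 (limma) those shares were 12.1% and 11.9%. Of 17 tested genes of SREBP processing and sterol sensing, 1 rose, none fell and 16 did not pass. Their median log2 fold change was 0.15, and 2 were higher and 0 lower at an unadjusted p under 0.05 (limma). The called gene was Sec24d, a coat protein of vesicles leaving the endoplasmic reticulum. Sec24d was at 13.4 ± 0.542 in distal and 18.3 ± 0.888 FPKM in proximal libraries (SD, n = 3, limma, adjusted p = 0.0455). Its call was lost without the variance trend and on leaving out any 1 library (adjusted p at most 0.163). The proteases that cleave SREBP, Mbtps1 and Mbtps2, had log2 fold changes of -0.05 and 0.28 (adjusted p = 0.893 and 0.300). In the isoprenoid branch, which turns farnesyl diphosphate into ubiquinone, dolichol and protein anchors, none of 11 tested genes passed (limma) and 0 had an unadjusted p under 0.05, with a median of 0.08.

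Cholesterol efflux and uptake genes each held 1 called gene. Mylip, a ubiquitin ligase induced by the sterol receptor LXR that removes lipoprotein receptors, was at 15.2, 30.9 and 27.4 FPKM in distal and 9.13, 8.32 and 6.39 FPKM in proximal libraries. Distal replicate 1 was the lowest distal library and still above all proximal ones, and the log2 fold change was -1.46 ± 0.25 (SE, limma, adjusted p = 0.0147). Vldlr, a receptor of the same kind, was at 1.29, 1.81 and 2.31 against 4.10, 3.46 and 4.09 FPKM, a log2 fold change of 0.81 ± 0.17 (SE, adjusted p = 0.0280). Both calls were lost without distal replicate 2, proximal replicate 2 or proximal replicate 3, that of Mylip also without distal replicate 3 (adjusted p at most 0.0618), and that of Vldlr also with no filter on low values (at most 0.104). The efflux list had 1 of 7 lower, none higher and 6 not passing, and the uptake list had 1 of 15 higher, none lower and 14 not passing. At an unadjusted p under 0.05 (limma), 2 efflux genes were lower and 1 higher, and 1 uptake gene was lower and 4 higher. The LXR target Abca1, a cholesterol exporter, had a log2 fold change of 0.08 (adjusted p = 0.820).

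NADPH supply, on which both pathways draw, held the gene with the smallest p of these lists. Pgd, phosphogluconate dehydrogenase, was at 18.8, 18.6 and 19.0 FPKM in distal and 32.2, 36.8 and 39.9 FPKM in proximal libraries. The distal values were nearly equal, and the log2 fold change, 0.91 ± 0.11 (limma with its SE, adjusted p = 0.00322), held its call under all 15 alternatives. G6pdx, an earlier enzyme of the same route, was at 8.46, 8.20 and 8.45 against 11.2, 10.9 and 10.5 FPKM, without overlap, and did not pass (adjusted p = 0.0861). Idh1, another NADPH source of this list, was at 6.12, 5.14 and 5.33 against 7.01, 4.82 and 3.11 FPKM. Its groups overlapped, and its log2 fold change of -0.18 did not pass (limma, adjusted p = 0.687). Hacd1, a dehydratase of fatty acid elongation, rose from 12.5 ± 1.92 to 21.3 ± 1.85 FPKM (SD, n = 3, adjusted p = 0.0175), and leaving out any 1 library numbered 2 or 3 ended its call (adjusted p at most 0.0843). In this list of citrate, NADPH and elongation genes 2 of 21 rose, none fell and 19 did not pass, with a median of 0.01. At an unadjusted p under 0.05 (limma), 5 were higher and 4 lower.

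Of 18 genes of triglyceride and phospholipid synthesis, 1 fell, none rose and 17 did not pass, with a median of -0.03. At an unadjusted p under 0.05 (limma), 1 was lower and 3 higher. The gene that fell was Dgat2, which completes triglycerides, at 12.0, 10.3 and 9.40 FPKM in distal and 7.24, 4.14 and 3.14 FPKM in proximal libraries (log2 fold change -1.04 ± 0.24 SE, limma, adjusted p = 0.0417). The groups did not overlap, and its call was lost with no filter on low values and on leaving out any library but proximal replicate 1 (adjusted p at most 0.159). None of 17 tested genes of fatty acid oxidation passed (limma), 2 were lower and 0 higher at an unadjusted p under 0.05, and their median was -0.25. Cpt1a, which commits fatty acids to oxidation, had a log2 fold change of -0.20 (adjusted p = 0.512).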

How the data were processed

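Total RNA of 6 libraries was converted to cDNA (NuGEN Ovation, random and oligo-dT primers) and read on a HiSeq instrument, per the labels' protocols; strand marking is not stated there. The authors used bcl2fastq 1.8.3, TopHat and Cufflinks on mm10, per the submitters' processing notes; the sources used here do not name their annotation. The deposited files list FPKM with an interval for 63241 transcripts per library. The deposited coverage, a signal not scaled to depth, served only as a check of depth and differed by at most 1.28-fold per FPKM between libraries.

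Transcripts carry no gene names and were matched to GENCODE M21 (GRCm38, as mm10) by span and spliced length (score at least 0.5, next gene below 0.8 of it) or by exons (at least 0.8 of the length). This placed 53323 transcripts with 93.85% of the FPKM, summed per gene. In a test on 2000 altered reference transcripts, 89.4% were assigned, 99.7% of them rightly. The test was limma 3.58.1 in R 4.3.3 (lmFit and eBayes with a trend, two-sided, on log2(FPKM + 1)), over the 10255 genes that averaged 1 FPKM or more, with Benjamini-Hochberg adjustment. Fold changes on this scale understate those of low genes. The fit was tested on simulated data. In the simulated comparison of 10255 genes it recovered 67% of genes changed by 1 and 94% of those changed by 2 on the log2 scale.

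The genes and lists were chosen with earlier results of these data known. Named are all 36 genes, up to 3 called genes of each other lipid list with the smallest p, and genes beside them given for context, chosen after their values were seen. The depth was derived from the interval widths of transcripts that overlap no other. The alternatives were a pseudocount of 0.1, no filter, a filter at 5 FPKM, other scalings, close matches, no trend, a replicate block and libraries left out.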

Additional observations from a re-analysis of the deposited data

How the results depend on the processing

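The calls of Idi1, Cyp51 and Insig1 held under all 15 alternatives, and 5 of the 8 called members lost theirs under some. None of the 8 changed direction. Over all genes, 464 were higher and 256 lower. The counts were 273 and 168 with a filter at 5 FPKM, 908 and 1385 without both libraries numbered 1, and 202 to 533 and 46 to 622 on leaving out 1 library. With no filter 137 were lower. The 4 lower sterol enzymes became 9 without both libraries numbered 1 and 2 to 7 on leaving out 1 library. The 2 lower fatty acid enzymes became 1 with no filter, 1 with close matches only (Fads2 is then not tested), 5 without both libraries numbered 1 and 0 to 2 on leaving out 1 library, and the 1 higher enzyme 0 to 1. The 1 lower regulator became 2 without both libraries numbered 1 and 1 to 2 on leaving out 1 library. The fatty acid median was -0.35 with the filter at 5 FPKM, which drops the low members, and -0.181 to -0.048 on leaving out 1 library. The cause of the other shifts was not tested.

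Among members that did not pass, signs turned without both libraries numbered 1 for Nsdhl (-0.002), Fasn (0.077), Elovl5 (-0.013) and Acsl3 (-0.023). On leaving out 1 library they ranged from -0.041 to 0.654 for Mvd, -0.361 to 0.014 for Ebp, -0.15 to 0.28 for Srebf1, -0.047 to 0.173 for Acaca, -0.163 to 0.026 for Fasn and -0.16 to 0.22 for Acsl3.

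The replicate number as a block gave 880 higher and 732 lower genes, with 8 sterol enzymes and 3 regulators lower. Deviations of same-numbered libraries correlated by 0.383, 0.045 and 0.286, and those of differently numbered libraries by -0.37 to 0.16. Distal replicate 2 correlated better with proximal replicate 3 (0.131) than with its own number. Whether same-numbered libraries share more than a number was not tested. At 1 to 2 FPKM (Mvk, Dhcr7, Acaca, Elovl6) depth limits what can be seen.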
